A study of Homo sapiens with 12 samples.

Results

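The genes described here are 10 nuclear-encoded chaperones and proteases of mitochondria, chosen by their symbols: HSPD1, HSPE1, HSPA9, TRAP1, GRPEL1, LONP1, CLPP, CLPX, YME1L1 and AFG3L2. All 10 were among the 14866 genes of the expression table, and all 10 passed the filter on low values that left 13502 genes for testing. Their RNA was measured in SHI-1 cells, an established human acute myeloid leukemia line that carries the MLL-AF6 fusion, in 4 groups of 3 libraries, each after 16 h. Controls received DMSO, the DSF group received 0.3 µM disulfiram with 1 µM copper, the NSM group received 5 µM niclosamide, and the DSF+NSM group received all 3 agents. Whether copper was also added to the DMSO and NSM cultures is not given in the sources used here. The libraries of a group came from 3 independent experiments with the same line. The study combined both drugs to deplete MLL-fusion proteins, and the 4 groups allow each drug, and their joint effect, to be read on these genes.

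Mitochondria import nearly all of their proteins unfolded, and the matrix chaperones pull them in and fold them. HSPA9 (mortalin) is the matrix HSP70, GRPEL1 is its nucleotide exchange factor, HSPD1 (HSP60) forms the folding chamber whose lid is HSPE1 (HSP10), and TRAP1 is the mitochondrial HSP90. LONP1 and the CLPX-CLPP pair are ATP-driven matrix proteases, while YME1L1 and AFG3L2 are proteases anchored in the inner membrane. Transcription of several of these genes is known to increase when unfolded protein accumulates in the matrix, which is called the mitochondrial unfolded protein response. Disulfiram forms a complex with copper ions, and niclosamide, an anthelmintic, is known to uncouple mitochondrial respiration.

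HSPD1 and HSPE1 lie head to head on chromosome 2 (hg38), HSPD1 on the minus strand at chr2:197486584-197516737 and HSPE1 on the plus strand at chr2:197500140-197503449, within the span of the longest HSPD1 transcripts. Parts of the region between their start sites are shown because these were the members with the largest interaction between the drugs. The RefSeq start of HSPE1 (GRCh38.p14) is 539 bases from the HSPD1 start that lies farther from it and 105 bases from a second HSPD1 start. Capitals mark heat shock element units, searched as GAANNTTC and TTCNNGAA on both strands, which share letters where units alternate.
HSPD1, 250 bases before the start, minus strand, chr2:197499841-197500090: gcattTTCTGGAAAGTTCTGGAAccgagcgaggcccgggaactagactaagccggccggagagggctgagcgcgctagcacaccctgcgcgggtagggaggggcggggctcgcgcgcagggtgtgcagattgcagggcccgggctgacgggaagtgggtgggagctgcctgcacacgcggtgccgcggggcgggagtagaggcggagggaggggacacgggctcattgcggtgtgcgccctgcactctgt
HSPE1, 250 bases before the start, plus strand, chr2:197500129-197500378: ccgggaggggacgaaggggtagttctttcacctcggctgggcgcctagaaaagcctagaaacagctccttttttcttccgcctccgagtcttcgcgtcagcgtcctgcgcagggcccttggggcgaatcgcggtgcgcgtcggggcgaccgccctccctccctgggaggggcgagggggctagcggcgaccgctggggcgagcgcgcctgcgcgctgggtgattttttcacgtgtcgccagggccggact
HSPA9, 250 bases before the start, minus strand, chr5:138575402-138575651: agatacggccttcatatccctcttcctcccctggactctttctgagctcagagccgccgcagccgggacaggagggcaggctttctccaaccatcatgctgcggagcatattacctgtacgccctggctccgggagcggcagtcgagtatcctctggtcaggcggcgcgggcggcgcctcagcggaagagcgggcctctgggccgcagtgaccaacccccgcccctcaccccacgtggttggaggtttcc
The HSPD1 window held 4 alternating units within 18 bases, 228 to 245 bases before the HSPD1 start and 294 to 311 bases before the HSPE1 start, so that they lie between these start sites, inside HSPD1 transcripts that begin farther upstream, and outside the 250 bases printed for HSPE1. A run of at least 3 alternating heat shock element units was found before 0.441% of 35116 promoters, GAANNTTC alone before 5.78% and TTCNNGAA alone before 6.62%. Among the 7 members with a promoter in the reference (9 windows), HSPD1 was the only one with either arrangement, and the HSPA9 window is printed as an example without a match. TGATGNAA, the core of the C/EBP-ATF composite element, was found in none of the 9 windows and in 3.14% of all promoters. A CCAAT box was found for CLPX (32% of all promoters) and the NRF1 palindrome at the second LONP1 start (1.03%). These matches describe letters in the windows, and binding was not measured.

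**Figure D1:**
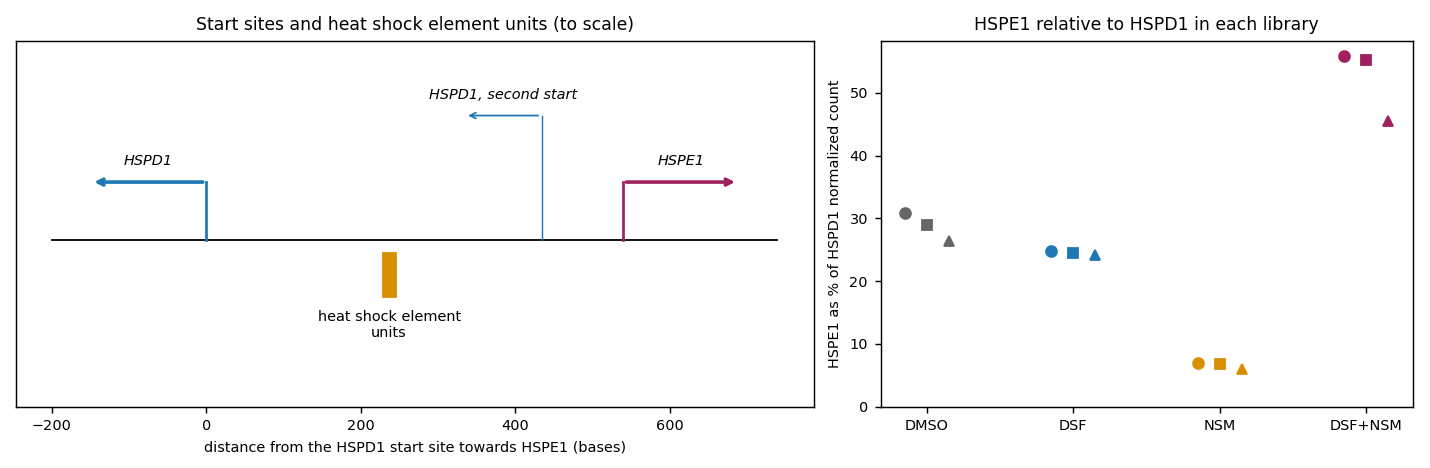
Left, the start sites of HSPD1 and HSPE1 with the direction of transcription (arrows) and the heat shock element units, on a scale of bases from the HSPD1 start. Right, the HSPE1 normalized count as a percentage of the HSPD1 normalized count in each of the 12 libraries (circle, square and triangle for replicates 1, 2 and 3). The percentage lay between 6.04% and 6.86% in NSM and between 45.5% and 55.8% in DSF+NSM, and the 4 groups did not overlap.

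The expression table holds normalized counts, that is, values per gene that the authors scaled for comparison between libraries. The exact form of that scaling was not settled. Sums of normalized counts ran from 13963864 to 17516910 in the 9 libraries of the other groups and from 22657898 to 25584448 with both drugs, and the estimated depth was 10206614 to 19031015 reads per library. The 10 members took 0.247% to 0.404% of the sum. Within groups, Spearman's rho of library pairs was 0.98 to 0.996, apart from NSM 3 against NSM 1 and NSM 2 (0.939 and 0.95). Calls of members that changed without NSM 3 are given in both ways, and those of related genes only in part. All 10 markers chosen for a monocytic leukemia line were listed (summed 35000 to 78600), and 6 of 12 markers of other cell types were listed at summed levels of 127 to 954, highest in DSF+NSM. Their part in the results was not tested. In RNA from whole cultures, a loss of cells of a kind and less RNA per cell cannot be told apart.

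Disulfiram with copper lowered the chaperonin pair and left the other members without a call, niclosamide moved members in both directions, and the combination raised HSPE1, HSPD1, HSPA9, LONP1 and YME1L1 on the authors' scale, of which HSPE1 alone stayed called under equal library sums and YME1L1 also lost its call when certain single libraries were left out. In DSF against DMSO, 0 of 10 members rose and 2 fell (limma, adjusted p under 0.05), where 11.9% of all genes tested rose and 5.95% fell. In NSM against DMSO, 3 rose and 4 fell, against 25.4% and 23.7% of all genes. Equal library sums gave 1 higher and 6 lower, where 6729 of 13502 genes were called, compared with 6635 on the authors' scale. In DSF+NSM against DMSO, 5 rose and 1 fell, against 28.3% and 24.5% of all genes. When every library was scaled to an equal sum, 1 was called higher and 5 lower, where 9115 of 13502 genes were called, compared with 7125 on the authors' scale. The median log2 change of the 10 members in these 3 comparisons was -0.15, -0.20 and 0.43, beside 0.047, 0.014 and 0.03 for all genes tested. The scaling matters because equal sums moved the median of all genes in DSF+NSM against DMSO to -0.74, and changes quoted under that scaling are read against this value.

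**Figure D2:**
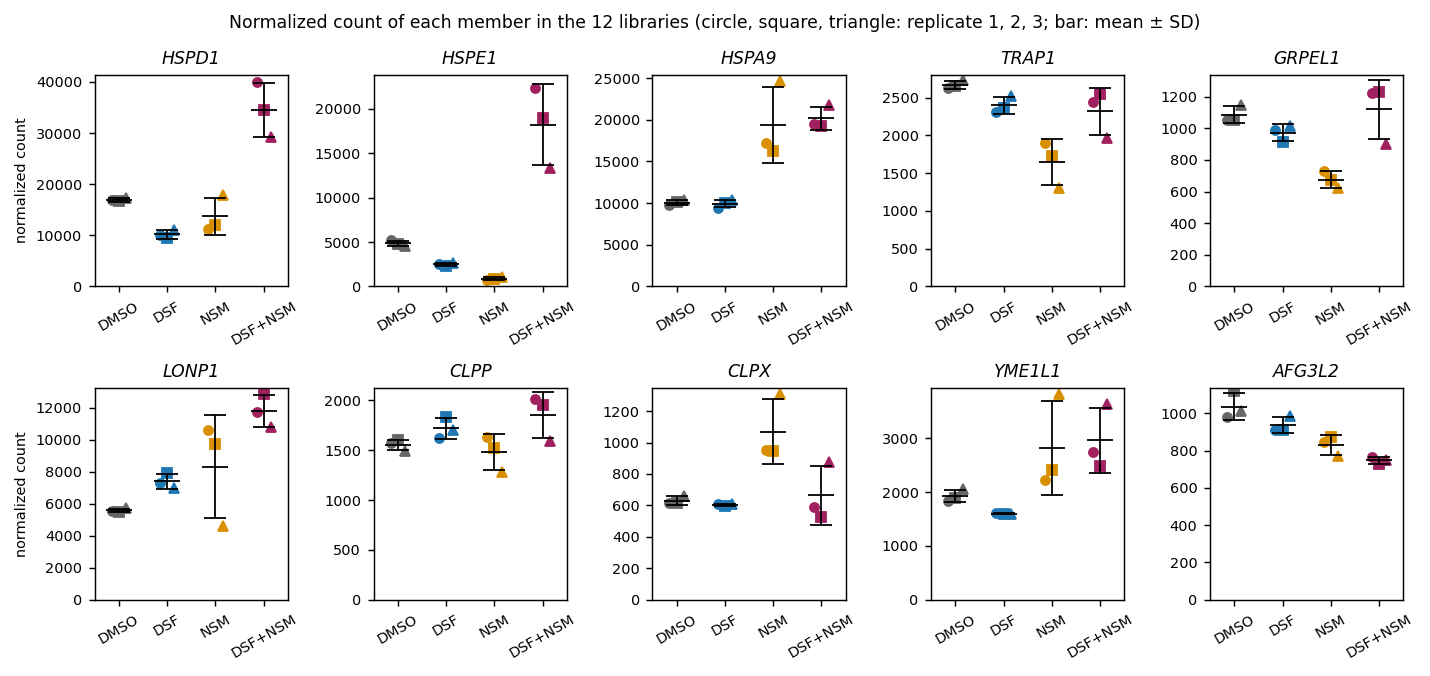
Normalized counts (vertical axes, from 0) of each member in the 12 libraries; circles, squares and triangles are replicates 1, 2 and 3 and the bars are the mean ± SD of a group. HSPE1 is lowest in the NSM libraries (771 to 1084) and highest in the DSF+NSM libraries (13293 to 22284), and NSM 3 stands apart from NSM 1 and NSM 2 for HSPD1, HSPA9, LONP1, CLPX and YME1L1.

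HSPE1, the lid of the folding chamber, had the widest range of all members. It was listed at 5187, 4822 and 4584 normalized counts in DMSO, 2509, 2297 and 2652 after DSF, 771, 808 and 1084 after NSM, and 22284, 18998 and 13293 after both. The 4 groups did not overlap, and every DSF+NSM library was above every other library. Against DMSO, HSPE1 fell by 0.97 on the log2 scale in DSF (SE 0.182, limma adjusted p = 0.0038) and fell by 2.47 in NSM (adjusted p = 9.24e-07), to 0.511 and 0.181 of the control level. In DSF+NSM it rose by 1.87 (95% confidence interval 1.48 to 2.27, limma adjusted p = 4.24e-06), a 3.66-fold rise that was 1.09 under equal sums and still called. Adding disulfiram with copper to niclosamide raised HSPE1 20.3-fold (log2 change 4.34, limma adjusted p = 9.21e-09). HSPE1 has a short canonical transcript of 557 bases, so it was set beside the 412 genes tested whose transcript has 400 to 800 bases. The median of these genes was 0.014 in NSM against DMSO and 0.35 in DSF+NSM against DMSO on the log2 scale, and 3 of them were lower than HSPE1 in the former and 38 higher in the latter.

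HSPD1, the chamber itself, fell with disulfiram and copper and rose with the combination, over a narrower range than HSPE1. Its normalized counts were 16847, 16624 and 17355 in DMSO, 10128, 9399 and 10975 after DSF, 11230, 11931 and 17939 after NSM, and 39919, 34443 and 29217 after both. The DSF libraries were all below DMSO and the DSF+NSM libraries all above it, while NSM 3 was above and NSM 1 and NSM 2 below. HSPD1 fell by 0.74 (log2) in DSF (SE 0.169, limma adjusted p = 0.0114) and rose by 1.02 in DSF+NSM (SE 0.169, adjusted p = 0.000301), a 2.02-fold rise. The NSM change of -0.34 was not called (limma adjusted p = 0.115) but was -0.55 without NSM 3 (adjusted p = 0.00077). Under equal sums the DSF+NSM rise was 0.23 and was no longer called (limma adjusted p = 0.199), and without DSF replicate 2 the DSF fall was 0.68 with an adjusted p of 0.0638.

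The chaperonin lid and chamber did not move in proportion. HSPE1 amounted to 26.4% to 30.8% of the HSPD1 normalized count in DMSO libraries, 24.2% to 24.8% after DSF, 6.04% to 6.86% after NSM and 45.5% to 55.8% after both. A factor common to all genes of a library leaves this ratio unchanged, whereas a factor that differs between genes would not. Whether the scaling held factors of the latter kind was not settled. Exons of annotated transcripts of the 2 genes overlap by 135 bases on opposite strands, and the kit does not mark strand. The annotation also names 18 pseudogenes after HSPD1 and 26 after HSPE1, none of them in the table, so the placement of reads shared with such copies is uncertain. HSPE1-MOB4, the read-through transcript that shares 192 exon bases with HSPE1, was listed at 0 to 44.4 normalized counts.

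HSPA9, the matrix HSP70, responded to niclosamide with or without the other agents. It was at 9714, 10100 and 10349 normalized counts in DMSO, 9472, 9993 and 10361 after DSF, 17237, 16243 and 24662 after NSM, and 19537, 19227 and 21755 after both. DSF libraries overlapped DMSO, and all 6 libraries with niclosamide were above all 6 without it. HSPA9 rose by 0.92 (log2) in NSM (SE 0.143, limma adjusted p = 0.000216) and by 1.00 in DSF+NSM (SE 0.143, adjusted p = 8.9e-05), 1.89-fold and 2.00-fold. DSF+NSM against NSM was not called (0.081, 95% confidence interval -0.23 to 0.39, limma adjusted p = 0.678), but it was 0.27 and called without NSM 3 (adjusted p = 0.0208). Under equal sums HSPA9 remained called in NSM at 0.65 but was at 0.22 in DSF+NSM against DMSO and not called (limma adjusted p = 0.194).

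GRPEL1, which releases ADP from HSPA9, went the other way from its partner in NSM. Its normalized counts were 1055, 1052 and 1147 in DMSO, 989, 913 and 1016 after DSF, 729, 673 and 625 after NSM, and 1222, 1232 and 904 after both. Every NSM library was below every other library, and DSF+NSM spanned the DMSO values. GRPEL1 fell by 0.68 (log2) in NSM (SE 0.14, limma adjusted p = 0.00155), and its DSF+NSM change was 0.032 (adjusted p = 0.862). GRPEL2, the second exchange factor of the matrix HSP70, instead rose by 1.30 in NSM (limma adjusted p = 0.00237), with normalized counts of 914, 1063 and 2228 there, and by 0.91 without NSM 3 (adjusted p = 0.000309).

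TRAP1, the mitochondrial HSP90, was at 2634, 2651 and 2736 normalized counts in DMSO, 2313, 2362 and 2522 after DSF, 1904, 1726 and 1306 after NSM, and 2444, 2550 and 1966 after both. All 9 treated libraries were below the DMSO range, with the NSM libraries lowest. TRAP1 fell by 0.72 (log2) in NSM (SE 0.148, limma adjusted p = 0.00161), and the DSF (-0.16) and DSF+NSM (-0.21) changes were not called. The DSF change was called at the same size with DSF and DMSO libraries alone (limma adjusted p = 0.0462) and with library weights (-0.17, adjusted p = 0.0154), and at -0.55 with a length and GC trend removed (adjusted p = 0.000631). The DSF+NSM change was called at -0.997 under equal sums (limma adjusted p = 4.55e-05) and at -0.62 with that trend removed (adjusted p = 2.94e-05). It shares 1477 exon bases with DNASE1 on the opposite strand, a gene listed at 124 to 202 normalized counts that was not called in these comparisons with all libraries and was called higher in NSM without NSM 3 (0.52 on the log2 scale, limma adjusted p = 0.0131).

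LONP1, the main matrix protease, was highest with the combination. It was at 5541, 5516 and 5715 normalized counts in DMSO, 7309, 7901 and 6984 after DSF, 10587, 9730 and 4619 after NSM, and 11753, 12843 and 10800 after both. DSF and DSF+NSM libraries were all above DMSO, whereas NSM 3 was below DMSO and NSM 1 and NSM 2 were above it. LONP1 rose by 1.07 (log2) in DSF+NSM (SE 0.238, limma adjusted p = 0.00229), 2.11-fold, and under equal sums the change was 0.29 and not called (adjusted p = 0.297). The NSM change was 0.48 (limma adjusted p = 0.112) with all libraries and 0.86 (adjusted p = 1.84e-06) without NSM 3. The DSF change was 0.40 (limma adjusted p = 0.266), and it was called at the same size without NSM 3 (adjusted p = 0.00152) or with DSF and DMSO libraries alone (adjusted p = 6.55e-05). LONP1 shares 42 exon bases with RPL36 on the opposite strand, and RPL36 was listed at 23400 to 27900 normalized counts in DMSO, 25400 in NSM 3, 43100 to 48600 in NSM 1 and NSM 2, and 45100 to 65900 in DSF+NSM. The part of shared reads in the LONP1 values was not tested.

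The CLPX-CLPP protease behaved differently in its parts. CLPX, the unfoldase, was at 612, 615 and 662 normalized counts in DMSO, 607, 594 and 607 after DSF, 951, 947 and 1307 after NSM, and 592, 526 and 877 after both. All NSM libraries were above all others, and DSF+NSM 3 was above the DMSO range while DSF+NSM 1 and DSF+NSM 2 were below it. CLPX rose by 0.75 (log2) in NSM (SE 0.187, limma adjusted p = 0.00575) and had a change of -0.70 in DSF+NSM against NSM (adjusted p = 0.011), which was -0.55 and not called without DSF+NSM 2 (adjusted p = 0.0567). The NSM rise of CLPX was 0.48 and not called under equal sums (limma adjusted p = 0.0756), and the change against NSM was not called with these 2 groups alone (adjusted p = 0.092). CLPP, the peptidase, had group means of 1555 ± 52.8 in DMSO, 1719 ± 105 after DSF, 1481 ± 181 after NSM and 1855 ± 232 after both (normalized count, SD, n = 3), and no comparison of it was called with all libraries. Its largest change against DMSO was 0.25 in DSF+NSM (95% confidence interval -0.037 to 0.53), which was called without NSM 3 (0.25, limma adjusted p = 0.0333) and without DSF+NSM 3 (0.35, adjusted p = 0.0372). Under equal sums this change turned to -0.54 and was called lower (limma adjusted p = 0.00174). With the length and GC trend removed it was -0.10 and not called (limma adjusted p = 0.336).

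Of the inner membrane proteases, YME1L1, whose active site faces the intermembrane space, was higher with niclosamide, and AFG3L2, which faces the matrix, was lower. YME1L1 was at 1835, 1883 and 2054 normalized counts in DMSO, 1616, 1595 and 1596 after DSF, 2226, 2414 and 3828 after NSM, and 2754, 2494 and 3642 after both. Both groups with niclosamide were above DMSO in every library, with the libraries numbered 3 highest. The DSF libraries were all below DMSO, and the DSF change of -0.26 (log2) was not called (limma adjusted p = 0.374). It was called at the same size with DSF and DMSO libraries alone (limma adjusted p = 0.00323) and without NSM 3 and DSF+NSM 3 (adjusted p = 0.004). Library weights gave -0.25, also called (limma adjusted p = 0.00207). YME1L1 rose by 0.51 (log2) in NSM (SE 0.192, limma adjusted p = 0.0425) and by 0.61 in DSF+NSM (adjusted p = 0.0184). The NSM call was lost under 12 of 24 alternatives, including the fit without NSM 3 (0.27, limma adjusted p = 0.0793), and under equal sums the DSF+NSM change turned to -0.18 (adjusted p = 0.458). The DSF+NSM call was also lost without DMSO 1 (limma adjusted p = 0.0585), DMSO 2 (adjusted p = 0.0536) or DSF+NSM 3 (0.45, adjusted p = 0.0802). Against NSM, YME1L1 in DSF+NSM was at 0.094 with all libraries (limma adjusted p = 0.724) and at 0.34 without NSM 3 (adjusted p = 0.0405). YME1L1 shares 443 exon bases with MASTL on the opposite strand, a gene listed at 209 to 416 normalized counts and not called against DMSO.

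AFG3L2 was at 982, 1118 and 1011 normalized counts in DMSO, 910, 912 and 985 after DSF, 846, 874 and 772 after NSM, and 765, 729 and 748 after both. The NSM and DSF+NSM libraries were all below DMSO. The DSF change of -0.15 (log2) was not called (limma adjusted p = 0.4). It was called with library weights (-0.20, limma adjusted p = 0.0113) and with the length and GC trend removed (-0.33, adjusted p = 0.0168). AFG3L2 fell by 0.32 (log2) in NSM (SE 0.113, limma adjusted p = 0.0329) and by 0.47 in DSF+NSM (adjusted p = 0.00379), and the latter call held under all 24 alternatives, while the NSM call was lost under 6 of 24, among them the fit of NSM and DMSO libraries alone (limma adjusted p = 0.106). It shares 837 exon bases with TUBB6 on the opposite strand, and TUBB6 fell by 2.35 in NSM and 1.82 in DSF+NSM, from 685 to 767 normalized counts in DMSO to 120 to 154 and 184 to 218. The part of shared reads in the AFG3L2 values was not tested.

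**Figure D3:**
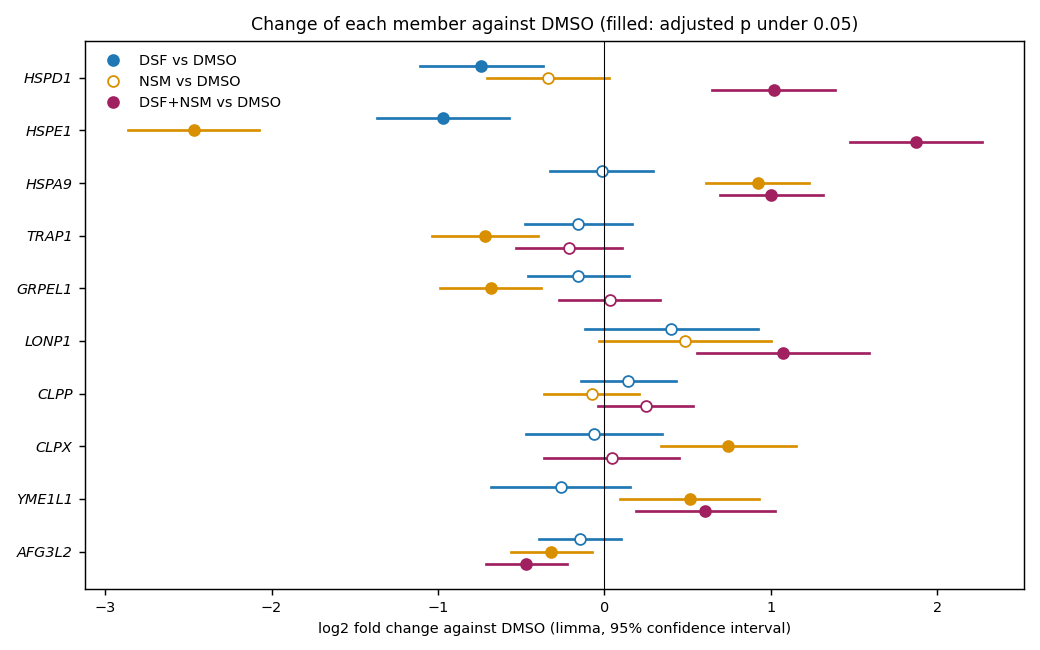
Log2 fold change of each member against DMSO (horizontal axis, limma) in DSF, NSM and DSF+NSM, with 95% confidence intervals; filled points had an adjusted p under 0.05. HSPE1 lies at -0.97, -2.47 and 1.87, the widest spread of the 10, and the DSF+NSM points of HSPD1, HSPA9 and LONP1 near 1 were not called when library sums were made equal.

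Per kilobase of canonical transcript, HSPE1 and HSPD1 were the most abundant members in DMSO, with mean levels of 8730 and 7550 normalized counts, followed by HSPA9 (2280), LONP1 (1810) and TRAP1 (1200). CLPP (645), YME1L1 (459), GRPEL1 (409), AFG3L2 (328) and CLPX (134) followed, and no neighbours in this order overlapped between DMSO libraries. In NSM, HSPE1 had rank 4 at 1590 and overlapped LONP1 (2690), and AFG3L2, GRPEL1 and CLPX overlapped at the low end with 263, 255 and 227. In DSF+NSM, HSPE1 reached 32700, above HSPD1 at 15400 with no overlap between them.

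The change that each drug made in the presence of the other was then compared. In DSF+NSM against DSF, 5 members rose (HSPE1, HSPD1, HSPA9, YME1L1 and LONP1) and 1 fell (AFG3L2), where 21.7% of all genes rose and 21.4% fell. Under equal sums 2 were called higher and 5 lower, where 8244 of 13502 genes were called and the median of all genes was -0.67. On the authors' scale the rises ran from 0.67 (log2) for LONP1 to 2.84 for HSPE1 (limma adjusted p = 0.0373 and 5.3e-07). In DSF+NSM against NSM, 4 members rose (HSPE1, HSPD1, GRPEL1 and TRAP1) and 1 fell (CLPX), where 20.3% of all genes rose and 18.3% fell. Under equal sums 2 were called higher and 3 lower, where 7392 of 13502 genes were called and the median of all genes was -0.48. On the authors' scale HSPD1 was 2.56-fold higher than in NSM and GRPEL1 1.64-fold (limma adjusted p = 7.72e-05 and 0.00175). The calls of LONP1 and AFG3L2 against DSF were lost when any 1 of the 9 DMSO, DSF and DSF+NSM libraries was left out (limma adjusted p up to 0.11 and 0.117). TRAP1 against NSM was at 0.46 without DSF+NSM 1 and 0.43 without DSF+NSM 2, not called, and at -0.010 under equal sums.

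The interaction, or the excess of the combined log2 change over the added changes of each drug, was called for 4 members, all of them higher than the sum, and for 0 lower, where 12.1% of all genes were called higher and 14% lower. Under equal sums 2 were called higher and 1 lower, where 4788 of 13502 genes were called and the median of all genes was -0.40. The 4 on the authors' scale were HSPE1 (5.31 on the log2 scale, SE 0.257, limma adjusted p = 3.98e-07), HSPD1 (2.09, SE 0.239, adjusted p = 0.00012), GRPEL1 (0.87, adjusted p = 0.00669) and TRAP1 (0.66, adjusted p = 0.0343). HSPE1 ranked 21 from the highest of 13502 genes, and 0 of the 412 genes with transcripts of 400 to 800 bases were above it. For HSPE1 the single-drug changes summed to -3.44, against an observed 1.87, and for HSPD1 to -1.08, against 1.02. HSPA9 (0.098, 95% confidence interval -0.34 to 0.54) and LONP1 (0.19, -0.54 to 0.92) had combined changes near the sum, with intervals that leave room for sizeable departures. Under equal sums HSPE1 and HSPD1 remained called, at 4.89 and 1.68, while GRPEL1 (limma adjusted p = 0.0659) and TRAP1 (adjusted p = 0.362) did not. CLPX was the member called lower there (-1.05, limma adjusted p = 0.0152). With all libraries on the authors' scale its interaction was -0.64 (limma adjusted p = 0.095), and it was called in 4 further alternatives, among them the fit without DSF+NSM 3 (-0.86, adjusted p = 0.0118). The YME1L1 interaction was 0.36 with all libraries (limma adjusted p = 0.364) and 0.60 without NSM 3 (adjusted p = 0.00992). The TRAP1 call was also lost without any 1 of 8 libraries (all DMSO and DSF libraries, DSF+NSM 1 and DSF+NSM 2; adjusted p up to 0.0885).

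**Figure D4:**
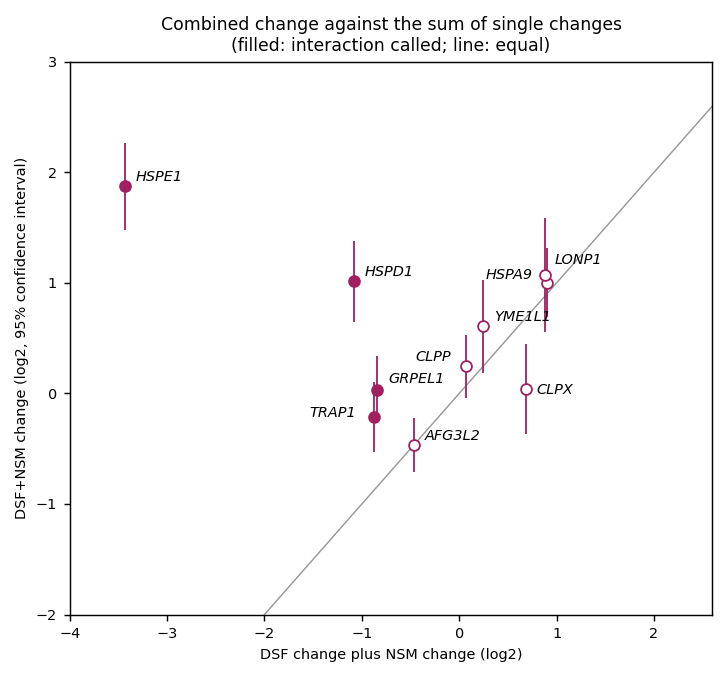
Change of each member in DSF+NSM against DMSO (vertical axis, log2, with 95% confidence interval) against the sum of its DSF and NSM changes (horizontal axis, log2); on the grey line both are equal, and filled points have a called interaction. HSPE1 lies 5.31 and HSPD1 2.09 above the line, while GRPEL1 and TRAP1 lie 0.87 and 0.66 above it and lose that call under equal library sums.

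Related genes from lists written from general knowledge gave the setting of these values. Over all genes, 11.9%, 25.4% and 28.3% rose and 5.95%, 23.7% and 24.5% fell in DSF, NSM and DSF+NSM against DMSO. These are 2405, 6635 and 7125 calls of 13502, and 5551, 8075 and 9137 without NSM 3. Calls in DSF were 7289 with DSF and DMSO libraries alone and 911 to 1772 without any 1 DMSO or DSF library. Under equal sums 9115 genes were called in DSF+NSM. Of 14 other mitochondrial chaperones and their partners, 2 rose and 5 fell in DSF+NSM against DMSO (median -0.15), and 1 was called higher and 10 lower under equal sums. CLPB, a disaggregase of the intermembrane space, rose by 1.99 (log2, limma adjusted p = 4.58e-07), and HSCB, a cochaperone of iron-sulfur cluster assembly, by 1.32, which was 0.54 and not called under equal sums (adjusted p = 0.0626). DNAJC11 and DNAJC19, J-domain proteins of mitochondria, fell by 1.16 and 1.12, and DNAJA3, the main J-domain partner of HSPA9, fell by 0.52 (limma adjusted p = 0.0147), a call lost without DMSO 3, DSF+NSM 1 or DSF+NSM 2 (adjusted p up to 0.0592). In DSF and NSM against DMSO, 1 and 3 of the 14 rose and 1 and 4 fell. The 2 calls in DSF became 1 without any of DMSO 1, DMSO 2, DSF 1 and DSF 2, and 4 (1 higher, 3 lower) without NSM 3.

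Of 16 tested genes listed with other mitochondrial proteases, 3 rose and 6 fell in DSF+NSM against DMSO (median -0.26), or 1 and 12 under equal sums. The 16 include the pseudogene AFG3L1P, which is 1 of the 3 rises. LACTB, a filament-forming serine protease, rose by 1.63 (log2, limma adjusted p = 0.000186) and AFG3L1P, a pseudogene related to AFG3L2, by 1.21. The AFG3L1P rise was 0.42 and not called under equal sums (limma adjusted p = 0.0508). METAP1D, a methionine aminopeptidase, and IMMP1L, a subunit of the inner membrane peptidase, fell by 1.76 and 1.46. OMA1, the stress-activated protease of the inner membrane, fell by 1.02 (limma adjusted p = 0.0294), a call lost without any 1 DMSO library, DSF+NSM 1 or DSF+NSM 2 (adjusted p up to 0.122). SPG7, the partner of AFG3L2, was at -0.40 and HTRA2 at 0.27, not called, and both were called at the same size without NSM 3 (limma adjusted p = 0.00189 and 0.0384). The HTRA2 change turned to -0.51 under equal sums and to -0.17 with the length and GC trend removed, neither called. In DSF and NSM, 0 and 1 of the 16 rose and 3 and 5 fell, and 11 fell in DSF when DSF and DMSO libraries were fitted alone. Leaving out NSM 3 gave 2 higher and 9 lower in DSF and 3 higher and 7 lower in NSM, whereas 1 call was left in DSF without any of the DMSO libraries, DSF 1, DSF 2, DSF+NSM 1 and DSF+NSM 2.

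Of 26 genes of mitochondrial protein import, 1 rose and 11 fell in DSF+NSM against DMSO (median -0.27), 4 rose and 13 fell in NSM (median -0.50), and 0 rose and 5 fell in DSF. TOMM7, a small subunit of the outer membrane entry gate, was the gene that rose in DSF+NSM (0.91 on the log2 scale, limma adjusted p = 0.0129), a call lost under equal sums (0.13) and without DSF+NSM 2 (adjusted p = 0.0503), while TOMM5 and the small TIM chaperone TIMM8B fell by 1.15 and 1.08. Under equal sums 0 were called higher and 21 lower in DSF+NSM, and 0 and 14 in NSM. The 5 calls in DSF became 1 without any of DMSO 1, DMSO 2, DSF 1 and DSF 2, 2 without DMSO 3 and 3 without DSF+NSM 2. They became 13 (1 higher, 12 lower) without NSM 3 and 18 (2 higher, 16 lower) with DSF and DMSO libraries alone. In these 2 fits 5551 and 7289 of all 13502 genes were called in DSF, compared with 2405 in the main fit.

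Of 18 regulators linked to mitochondrial stress, 4 rose with DSF, 10 with NSM and 8 with both, and 1, 1 and 3 fell; under equal sums 6 were called higher and 7 lower in DSF+NSM. Leaving out NSM 3 took the calls from 5 to 11 in DSF (10 higher, 1 lower) and from 11 to 18 in DSF+NSM (12 higher, 6 lower). DDIT3 (CHOP), a transcription factor of the integrated stress response, rose by 3.14, 4.85 and 4.99 on the log2 scale in DSF, NSM and DSF+NSM. ATF4, which acts upstream of it, rose by 0.67, 1.56 and 1.53, and ATF5, which is linked to the mitochondrial unfolded protein response, by 1.52 in NSM and 0.38 in DSF+NSM (limma adjusted p = 6.39e-06 and 0.048). The latter ATF5 call was lost or turned under 15 of 24 alternatives, with a change of -0.41 under equal sums. TFAM, which maintains mitochondrial DNA, fell by 1.14 in NSM and 1.27 in DSF+NSM; its fall of 0.83 in DSF (limma adjusted p = 0.0471) was no longer called under 11 of 24 alternatives, including the fits without any 1 of 10 libraries (all but NSM 1 and NSM 3). JUN rose most in DSF+NSM (5.56), and EIF2AK2 fell there by 1.09. HSF1, the heat shock transcription factor, was not called against DMSO with all libraries (log2 change 0.35 for DSF, 0.38 for NSM and 0.45 for both). Its normalized counts were 861 to 912 in DMSO and 1615, 1398 and 663 after NSM. Without NSM 3 all 3 changes were called (0.35, 0.77 and 0.45, with limma adjusted p = 0.00394, 5.49e-06 and 0.000244). With the length and GC trend removed, the DSF and DSF+NSM changes turned to -0.081 and -0.038, neither called. Under equal sums the DSF+NSM change turned to -0.34, also not called (limma adjusted p = 0.259).

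The 15 cytosolic heat shock genes all rose with the combination. Their changes in DSF+NSM had a median of 2.95 on the log2 scale (14 of 15 were called higher under equal sums), 0 rose and 8 fell in NSM (median -0.76), and 4 rose and 1 fell in DSF. DNAJB1, the HSP40 partner of cytosolic HSP70, rose by 7.73 (log2) in DSF+NSM and HSPA8, the constitutive HSP70, by 2.34. In NSM the HSPA8 change was -0.41 and not called (limma adjusted p = 0.103), but it was -0.72 and called without NSM 3 (adjusted p = 1.49e-05). HSPA1B, the inducible HSP70, rose by 4.68 in DSF, where HSPE1 fell, and by 9.12 in DSF+NSM, and it fell by 1.67 in NSM. Reads of HSPA1A and HSPA1B can be split between near-identical copies, and the rise of 9.74 for HSPA1A carries the same limit. The interaction was called higher for all 15 of these genes.

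Of 15 chaperones of the endoplasmic reticulum, 4 rose with DSF, 6 with NSM and 10 with both, and 0, 2 and 1 fell; under equal sums 3 were called higher and 5 lower in DSF+NSM. In DSF the 4 calls became 8 (6 higher, 2 lower) without NSM 3 and 9 (7 higher, 2 lower) with DSF and DMSO libraries alone. HSPA5 (BiP), the HSP70 of that compartment and the counterpart of HSPA9, rose by 0.68, 1.70 and 2.27 (log2) in the same 3 comparisons. HERPUD1, which serves degradation from the endoplasmic reticulum, rose by 0.98, 1.64 and 1.72, and PDIA4, a disulfide isomerase, fell by 0.66 in DSF+NSM. No mitochondrially encoded gene was in the table, so transcripts made inside the organelle were not analysed here.

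**Figure D5:**
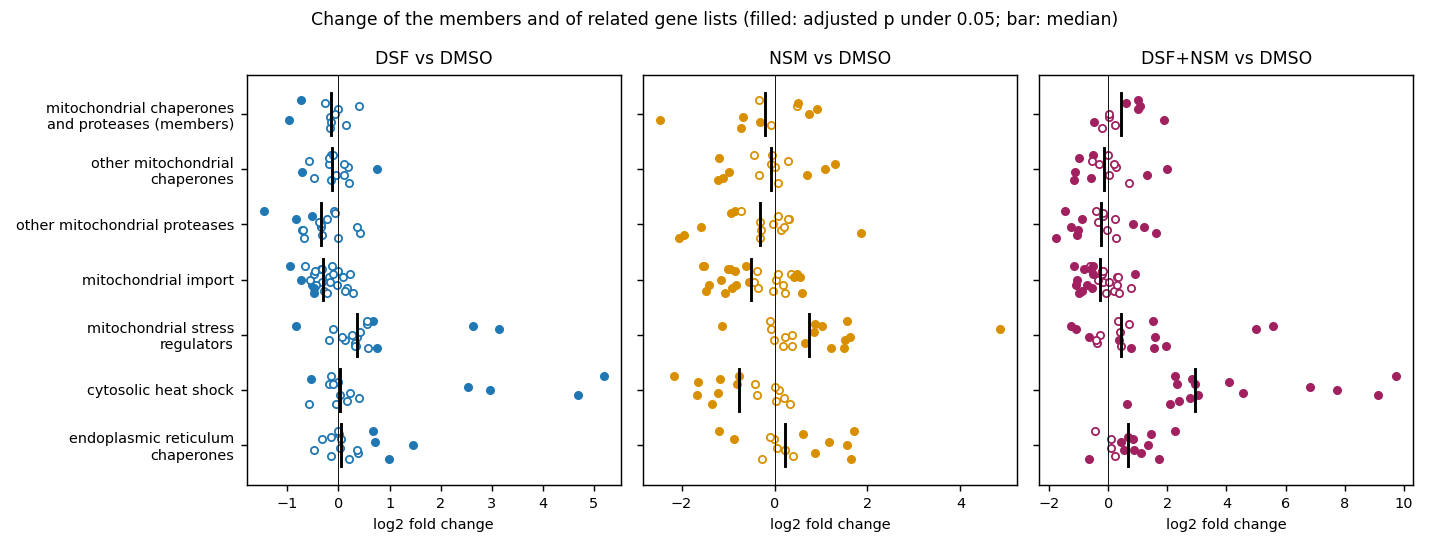
Log2 fold change (horizontal axes, limma; the 3 panels differ in range) of the 10 members and of each tested gene of 6 related lists, in DSF, NSM and DSF+NSM against DMSO; filled points had an adjusted p under 0.05 and bars are medians. All 15 cytosolic heat shock genes lie above 0 in DSF+NSM, with 14 of 15 still called higher under equal library sums. The members' median is 0.43 there, with 5 called higher and 1 lower. Equal sums, which moved the median of all genes to -0.74, called 1 member higher and 5 lower, while rescaling by a trimmed mean kept 5 and 1.

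Genes with a similar pattern over the 4 group means were found by the smallest root mean square difference of centred log2 values. For HSPD1 these were TCP1, a subunit of the cytosolic chaperonin TRiC (0.068), LOC100506282 (0.084, with a mean of 12 normalized counts) and HSPA4L, an HSP110 family member (0.1). For HSPA9 they were FBN1 (0.022), RPS25 (0.039) and CSNK2A1 (0.040), and for LONP1 ZNF133 (0.021), SMTN (0.023) and RBM23 (0.026). The likeness rests on 4 means and says nothing of shared control.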

How the data were processed

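RNA of 12 SHI-1 libraries was analysed. Per the methods and the labels, mRNA was selected with dT beads, libraries were made with the Illumina TruSeq RNA v2 kit, which does not mark strand, and reads were trimmed with Trimmomatic. The submitters' processing notes then name bcl2fastq 2.19, Bowtie2, Picard, featureCounts, DESeq2 and hg38, whereas the methods name STAR and Salmon with DESeq2. Which of them made the table was not settled. The authors deposited normalized counts, a signal per gene for each library, set over 24 libraries of which 12 are used here. In each library, 32.2% to 32.9% of nonzero values were whole multiples (within 0.01) of its commonest smallest step, so reads were not recovered and the depth was estimated as sum over step.

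Values were analysed as log2(value + 1) for genes that reached 10 in 3 or more libraries, in 1 limma 3.58.1 fit (R 4.3.3, trend, robust, all 12 libraries, no replicate block) with Benjamini-Hochberg adjustment over all genes and a threshold of 0.05. Fold changes are on that scale. P-values measure the spread between the 3 libraries within each group, pooled over all 4 groups. A library outside a comparison therefore also enters the p-values of that comparison. Correlations of same-numbered libraries (-0.064 to 0.278) did not settle whether the replicate numbers mark shared experiments. A fit with the replicate number as a block was run as an alternative. Gene positions and lengths came from GENCODE 44 (hg38) and promoters from RefSeq (GRCh38.p14). Figures were drawn in Python 3.11.15 with matplotlib 3.10.9.

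All 10 members are named. From each list, up to 2 rises and 2 falls of largest size in DSF+NSM against DMSO are named (called, no overlap, mean of at least 50), with a set of genes named in any case and the 3 genes nearest in pattern to HSPD1, HSPA9 and LONP1. DNASE1, RPL36 and TUBB6 were added for shared exons. The members and lists were chosen with earlier results of these data known. Alternatives covered scaling, filter, pseudocount, libraries fitted, library weights, replicate block and each library left out; removal of a length and GC trend (86.7% of genes tested had both values) and leaving out both libraries numbered 3 were added after the data were seen.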

Additional observations from a re-analysis of the deposited data

Results flagged for a closer look

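For 4 members the effect of niclosamide differed between cultures with and without disulfiram and copper, by the interaction term of the limma fit. The difference was 5.31 on the log2 scale for HSPE1 (adjusted p = 3.98e-07), where the change was -2.47 for niclosamide alone and 2.84 for niclosamide added to disulfiram and copper. It was 2.09 for HSPD1 (limma adjusted p = 0.00012), with changes of -0.34 (not called with all libraries, but -0.55 and called without NSM 3) and 1.75. It was 0.87 for GRPEL1 (limma adjusted p = 0.00669), with changes of -0.68 and 0.19 (not called), and 0.66 for TRAP1 (adjusted p = 0.0343), with changes of -0.72 and -0.056 (not called). Under equal sums the interactions of GRPEL1 and TRAP1 were not called (limma adjusted p = 0.0659 and 0.362). The TRAP1 call was lost under 9 of 23 alternatives.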

How the results depend on the processing

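Of 60 changes of members (10 genes in 6 comparisons), 14 kept direction and side of the threshold under all alternatives, and of 30 called ones 13 did, among them all 6 of HSPE1. Over all alternatives, 1250 values stayed on their side, 62 passed the threshold, 64 lost it and 54 changed sign; the causes were not tested. The number of members called in DSF against DMSO went from 2 to 5 with only the groups compared, 6 with library weights, 4 with the length and GC trend removed and 4 without NSM 3 and DSF+NSM 3. In that order, calls over all genes went from 2405 of 13502 to 7289, 8171, 3269 (of 11712) and 6904. In DSF+NSM against NSM the number of members called went from 5 to 3, 10 and 8 with only the groups compared, library weights and those libraries left out. The interaction went from 4 to 8 with library weights. Calls over all genes went from 5212 to 2473, 9782 and 7883 against NSM and from 3527 to 8933 in the interaction. The library weights ran from 0.0233 for NSM 3 to 32.8 for NSM 2. Leaving out each library in turn gave 1 to 3 members called in DSF against DMSO (1 without DSF replicate 2), 5 to 8 in NSM, 5 to 7 in DSF+NSM, 4 to 6 against DSF, 3 to 7 against NSM (3 without DSF+NSM replicate 2) and 3 to 5 in the interaction. In that order, 911 to 5551, 5421 to 8075, 5980 to 9137, 4656 to 8114, 3781 to 6621 and 2618 to 6175 of all genes were called. Only the groups compared cannot be fitted for the interaction.

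With the replicate number as a block, the counts were 2, 6, 6, 5, 6 and 4 in the order DSF, NSM, DSF+NSM, against DSF, against NSM and interaction; AFG3L2 lost its call in NSM (adjusted p = 0.0506) and against DSF (0.0537), LONP1 gained one against NSM (0.0441), and it changed no other call. Over all genes the block fit called 2520, 6850, 7279, 5978, 5403 and 3646 genes in that order. Of 18 same-numbered pairs, 2 had a correlation over 0.1 (range -0.064 to 0.278). Of the 12 libraries, 4 correlated best with their own number in every other group.

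Under equal sums, log2 changes turned in DSF+NSM against DMSO for CLPP (-0.54), CLPX (-0.74), GRPEL1 (-0.75) and YME1L1 (-0.18), against DSF for CLPP (-0.58), CLPX (-0.58), GRPEL1 (-0.50) and LONP1 (-0.015), against NSM for CLPP (-0.19), HSPA9 (-0.43), TRAP1 (-0.010) and YME1L1 (-0.42), and in the interaction for CLPP (-0.24), HSPA9 (-0.32), LONP1 (-0.23) and YME1L1 (-0.061). With the length and GC trend removed, they turned in DSF for CLPP (-0.22), CLPX (0.074), HSPA9 (0.087) and LONP1 (-0.065), in DSF+NSM for CLPP (-0.10) and GRPEL1 (-0.061), against NSM for CLPP (-0.042) and in the interaction for AFG3L2 (0.017). Library weights turned CLPX in DSF+NSM (-0.11) and against DSF (-0.062), TRAP1 against DSF (0.049) and the LONP1 interaction (-0.096). Leaving out NSM 3 and DSF+NSM 3 together turned CLPX in DSF+NSM (-0.17) and against DSF (-0.11), TRAP1 against DSF (0.059), CLPP in NSM (0.023) and the LONP1 interaction (-0.13). The AFG3L2 interaction was 0.027 after rescaling by the median of ratios and 0.021 by a trimmed mean. With single libraries left out, values crossed 0 for the interactions of AFG3L2 (-0.059 to 0.034), HSPA9 (-0.017 to 0.28) and LONP1 (-0.19 to 0.41), for CLPP in NSM (-0.15 to 0.023), HSPA9 in DSF (-0.047 to 0.018), CLPX (-0.17 to 0.19) and GRPEL1 (-0.045 to 0.18) in DSF+NSM, CLPX (-0.11 to 0.26) and TRAP1 (-0.13 to 0.059) against DSF, and HSPA9 (-0.034 to 0.27) and YME1L1 (-0.064 to 0.34) against NSM. None of these was called with all libraries and the authors' scaling except YME1L1 in DSF+NSM, LONP1 against DSF and TRAP1 against NSM. Of the values turned under equal sums, those of CLPP, CLPX and GRPEL1 in DSF+NSM were called lower against DMSO and against DSF. The HSPA9 change against NSM was also called lower there (limma adjusted p = 0.0224).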

Other observations

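The neighbours of the HSPD1-HSPE1 pair on chromosome 2 were COQ10B and MOB4, and the difference of their changes from those of the pair was not tested. COQ10B, a coenzyme Q binding protein, rose in all 3 comparisons with DMSO (log2 changes 0.75 for DSF, 2.02 for NSM and 2.24 for both; limma adjusted p = 0.00692, 1.37e-06 and 2.9e-07), with 185 to 234 normalized counts in DMSO and 942 to 975 in DSF+NSM. MOB4, which lies on the other side of HSPE1 and shares the read-through transcript with it, fell by 0.80 in DSF (limma adjusted p = 0.0443), a call lost under 11 of 24 alternatives. Its changes of 0.18 in NSM and 0.28 in DSF+NSM were not called, although its DSF+NSM libraries were all above DMSO. MOB4 rose by 1.08 in DSF+NSM against DSF (limma adjusted p = 0.00402), or by 0.40 without a call under equal sums (adjusted p = 0.189). Without NSM 3, MOB4 was at -0.18 in NSM (not called) and 0.28 in DSF+NSM (limma adjusted p = 0.045), and its interaction of 0.90 (adjusted p = 0.078) was 1.26 (adjusted p = 4.08e-05). These genes were chosen by position after the values of HSPD1 and HSPE1 were known.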
